A study of Homo sapiens with 22 samples.

Results

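The genes described here are the aminoacyl-tRNA synthetases, chosen by name as every entry of both count tables that follows the pattern of an amino acid letter and ARS, with EPRS, FARSA, FARSB and FARS2. The rule found 37 genes among 59087 names and used no measured value. Of these, 20 encode cytoplasmic enzymes and 17, whose names end in 2, encode mitochondrial enzymes. Gene names are spelled as in the tables, where AARS, for example, is the gene now called AARS1. RNA-Seq was performed on HUDEP-2 cells, an immortalized human erythroid progenitor line, at D0, in expansion medium with SCF, erythropoietin, dexamethasone and doxycycline, and at D6 of culture in maturation medium with erythropoietin, SCF, insulin, transferrin and doxycycline. In the H2A.X experiment, WT cells (n = 2 libraries per day) were compared with H2A.X KO cells (n = 3 per day), and in the BAZ1B experiment WT cells (n = 3 per day) were compared with BAZ1B KO cells (n = 3 per day). H2A.X is a variant histone that is phosphorylated at DNA breaks, and BAZ1B (WSTF) is a kinase for its tyrosine. The KO cells were homozygous deletions made with pairs of CRISPR/Cas9 guides from lentiviral vectors and grown from colonies plated at limiting dilution, so a KO library also carries what is particular to its subclone. The study speaks of its WT cells, too, as subclones handled like the KO lines, and the labels do not tie each WT library to one of them, so p-values measure the spread between these libraries, part of which may be technical.

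Aminoacyl-tRNA synthetases attach each amino acid to its tRNA, the step at which the genetic code is read. The cytosol and the mitochondrion use mostly separate enzymes, both encoded in the nucleus, and the mitochondrial enzymes serve the few proteins of the respiratory chain that are made inside the organelle. In the cytosol several synthetases are held together in the multisynthetase complex, EPRS charges both glutamate and proline, and FARSA and FARSB are the subunits of one phenylalanine enzyme. GARS and KARS each supply both compartments from one gene, and glutamine has a cytoplasmic enzyme, QARS, and no mitochondrial counterpart. Maturing erythroblasts fill with hemoglobin while they lose their mitochondria, and many cytoplasmic synthetase genes are known targets of ATF4, the transcription factor of the integrated stress response.

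Libraries held 11910141 to 21013004 counted reads in the H2A.X experiment and 33199408 to 41273244 in the BAZ1B experiment, and the synthetases together took 0.565% to 0.795% of the reads of a library. All 37 genes passed the filter on low counts, leaving 13236 and 13879 genes tested in the H2A.X and BAZ1B experiments, with a common biological coefficient of variation of 0.239 and 0.0865. The target H2AFX stood at 1575 to 2391 normalized counts in the 4 WT libraries and 308 to 1050 in the 6 KO libraries, and BAZ1B stood at 9104 to 9913 in WT and 6556 to 8349 in KO, although the H2A.X guides removed the coding region, whose reads were not separated from those of the rest of the transcript, and the BAZ1B guides removed the first exon and reads from the other exons do not test the deletion. Of 12 erythroid markers, 10 or 11 had a mean of at least 50 normalized counts in every group. At D0 their summed level was 209713 to 279850 in H2A.X KO and 411929 to 561046 in the WT of that experiment, and that of 4 megakaryocyte markers was 575 to 1330 in KO and 153 to 170 in WT. At D6 the genotypes overlapped in both sums. The erythroid sum was then 750200 to 1256670 in KO and 645933 to 1092830 in WT, and the megakaryocyte sum 34.0 to 84.0 and 62.6 to 139. The summed level of 8 mast cell and eosinophil markers moved with the day, from between 17031 and 23279 normalized counts at D0 to between 459 and 1532 at D6 in the BAZ1B experiment, and that of 4 lymphoid and monocyte markers moved from between 65.0 and 231 to between 1.05 and 13.1. In the BAZ1B experiment the megakaryocyte sum moved from between 1291 and 2836 to between 53.4 and 390. On each day every BAZ1B KO library lay below every WT library in this sum. The D6 ranges were 53.4 to 179 for KO and 312 to 390 for WT. The erythroid sum also separated the BAZ1B genotypes. KO libraries lay above WT at D0 (278349 to 297133 against 236514 to 264509). They lay below WT at D6 (1208410 to 1424690 against 1430470 to 1644050). In the H2A.X experiment the mast cell and eosinophil sum was 1821 to 4069 in the WT libraries of both days, 3679 to 7368 in KO at D0 and 54.2 to 237 in KO at D6. The part of these markers in the differences was not tested, and in bulk libraries fewer cells of a type and less RNA per cell cannot be told apart. In the H2A.X experiment, 5 of the 6 KO columns carry the word Redo, and the sixth, KO D6 replicate 3, and the 4 WT columns do not. KO D6 replicate 3 stood apart from the other KO D6 libraries in the synthetases. Synthetase calls in H2A.X KO between days and against WT at D6 are therefore also given without it. Values by promoter motif, for other gene lists and for transcript length are given only with it.

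Promoters are shown first for the cytoplasmic genes that hold the C/EBP-ATF response element (CARE), the DNA sequence bound by ATF4 together with a C/EBP protein, since these genes are compared with the other cytoplasmic synthetases in what follows. RefSeq start sites on GRCh38.p14 were available for 30 of the 37 genes, and a window from 250 bases before to 50 bases after each start was searched on both strands for TGATGNAA or its complement TTNCATCA. Several start sites were listed for some genes, and a gene was counted where any of its windows held the letters. For CARS, GARS and TARS, another window held no match. The letters were found in 7 of 16 cytoplasmic genes (43.8%), namely AARS, CARS, GARS, IARS, MARS, NARS and TARS, and in 1 of 14 mitochondrial genes (7.14%), YARS2. Of all 27305 genes with such windows, 1217 (4.46%) held them. The matches of 7 of these 8 genes are printed on the strand of the gene, 5′ to 3′, with 11 bases on each side and the matched letters in capitals, and that of NARS is not printed here.
AARS (chr16:70289675-70289704, minus strand): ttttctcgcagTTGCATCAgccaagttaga
CARS (chr11:3057407-3057436, minus strand): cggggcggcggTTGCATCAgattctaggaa
GARS (chr7:30594834-30594863, plus strand): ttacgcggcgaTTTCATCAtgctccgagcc
IARS (chr9:92293692-92293721, minus strand): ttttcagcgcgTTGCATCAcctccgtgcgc
MARS (chr12:57488053-57488082, plus strand): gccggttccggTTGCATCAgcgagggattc
TARS (chr5:33440956-33440985, plus strand): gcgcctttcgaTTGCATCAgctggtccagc
YARS2 (chr12:32756076-32756105, minus strand): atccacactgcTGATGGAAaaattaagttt
Of those printed, AARS, CARS, IARS, MARS and TARS shared the same 8 letters, GARS differed at the variable position, and YARS2 at that position and in orientation. Counted from the first transcribed base of the matching window as 1, the match began at position -2 in CARS, -4 in MARS, -13 in IARS, -33 in GARS and 3 in TARS, close to that start, and at -187 in AARS and -197 in YARS2. The palindromic motif of NRF1, a factor of nuclear genes for mitochondrial proteins, was found in MARS2 alone among the 30 genes, at position -27, against 414 of 27305 genes (1.52%). A match is a description of the letters and was not tested for binding.

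The matching window of CARS spans chr11:3057374-3057673 on the minus strand and is printed whole, with the match in capitals. CARS was the 1 synthetase called for a difference between BAZ1B KO and WT in its change between days. That call was lost in most fits that left out 1 library. The other CARS window, chr11:3040935-3041234, held no match and is not printed.
CARS promoter: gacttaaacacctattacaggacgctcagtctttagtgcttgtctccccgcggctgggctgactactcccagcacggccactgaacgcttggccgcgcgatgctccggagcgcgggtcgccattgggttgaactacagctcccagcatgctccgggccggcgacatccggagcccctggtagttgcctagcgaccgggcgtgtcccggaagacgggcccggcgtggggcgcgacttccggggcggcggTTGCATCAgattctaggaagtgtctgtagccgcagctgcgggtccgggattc
HARS and HARS2, the cytoplasmic and mitochondrial histidine enzymes, lie head to head on chromosome 5, with start sites at 140691370 and 140691455 and 84 bases between them. Their windows share 184 bases, chr5:140691321-140691504, printed on the plus strand, the strand of HARS2, because both genes are read from this stretch and 1 of them was called between days.
HARS and HARS2 shared stretch: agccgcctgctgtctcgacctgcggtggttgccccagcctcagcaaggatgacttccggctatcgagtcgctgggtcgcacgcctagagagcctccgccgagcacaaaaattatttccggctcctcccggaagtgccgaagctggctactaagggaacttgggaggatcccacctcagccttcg

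Levels between genes are compared as RPKM, counted reads scaled by the length of the canonical transcript and by library size. The median cytoplasmic synthetase stood at 80.3 to 140 RPKM in the 8 groups and the median mitochondrial synthetase at 10.8 to 14.98. In the BAZ1B experiment, the cytoplasmic enzymes with the highest levels were FARSA (183 to 200 RPKM over 12 libraries), KARS (154 to 197), IARS (130 to 172), GARS (114 to 196), QARS (129 to 151), NARS (135 to 151), VARS (123 to 165), TARS (119 to 145), SARS (116 to 139) and YARS (102 to 135). The lowest cytoplasmic levels were those of FARSB (17.9 to 28.0), CARS (24.2 to 41.5), DARS (44.2 to 53.9), RARS (44.4 to 62.3) and HARS (41.5 to 63.8), and EPRS, MARS, LARS, AARS and WARS lay between 54.0 and 129. FARSA and FARSB encode the subunits of the same enzyme and had the highest and the lowest median level of the class in this experiment. In the H2A.X experiment KARS (median 181 RPKM) stood above FARSA (150), and CARS (24.7) below FARSB (25.6). The transcript length used for FARSB, 6761 bases, was the longest of the 37, and its part in the gap between FARSA and FARSB was not tested.

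Among the mitochondrial enzymes, IARS2 (29.4 to 51.0 RPKM), CARS2 (24.6 to 33.0), VARS2 (22.4 to 26.8) and RARS2 (20.5 to 25.9) were among those with the highest levels in the BAZ1B experiment, and PARS2 (2.61 to 5.36) and SARS2 (3.24 to 4.65) the lowest. AARS2, EARS2, FARS2, HARS2, LARS2, MARS2, NARS2, TARS2, WARS2 and YARS2 lay between 5.57 and 22.3. SARS2 and VARS2 share 1492 and 3575 exonic bases with another gene on the same strand, and MARS shares 60 with DDIT3 on the opposite strand, so how reads were divided there is uncertain. The sources disagree on whether the library kit kept the strand.

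The first question was how the enzymes changed with maturation. In BAZ1B-experiment WT cells, cytoplasmic synthetase mRNAs mostly rose between D0 and D6 and mitochondrial ones split in both directions. Of 20 cytoplasmic genes, 15 were called higher, 2 lower and 3 were not called at an adjusted p below 0.05 (edgeR quasi-likelihood test, Benjamini-Hochberg). Of 17 mitochondrial genes, 5 were called higher, 7 lower and 5 were not called. Together 29 of the 37 were called, against 68.9% of all genes tested (33.5% higher and 35.4% lower), a number near the background, with 20 called higher and 9 lower. The median log2 fold change was 0.27 in the cytoplasmic class and -0.11 in the mitochondrial class, beside -0.015 over all genes tested. In the multisynthetase complex, whose 8 members here are EPRS, IARS, LARS, QARS, MARS, KARS, RARS and DARS, 5 were called higher and 1 lower (median 0.24), and of the 12 cytoplasmic genes outside it 10 were called higher and 1 lower (median 0.30).

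**Figure D1:**
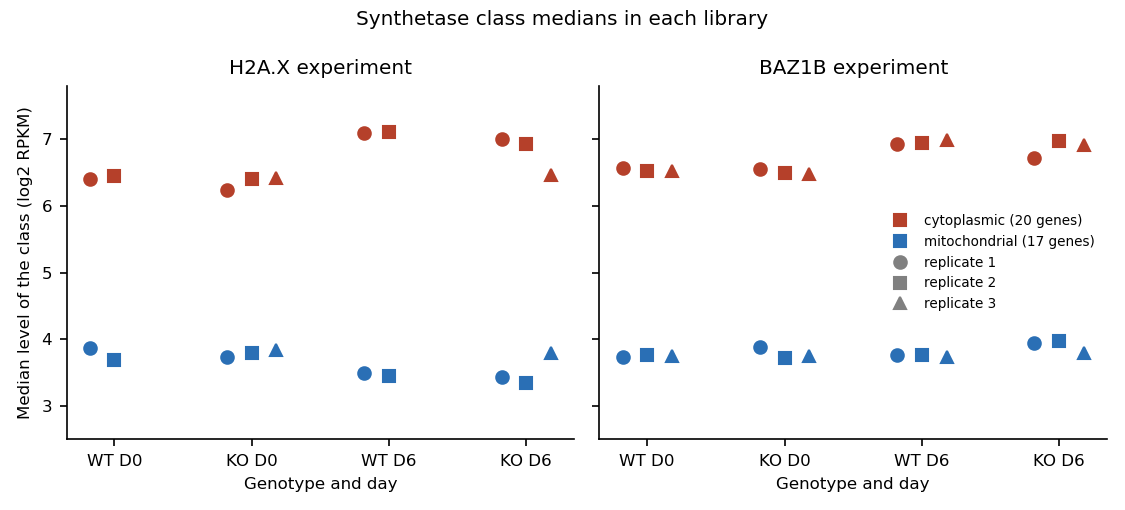
Median log2 RPKM of the 20 cytoplasmic (red) and 17 mitochondrial (blue) synthetases in each library, by genotype and day, for the H2A.X experiment (left) and the BAZ1B experiment (right). Symbols mark the replicate, and the cytoplasmic median lies at 6.72 or higher in every D6 library except H2A.X KO replicate 3, at 6.46.

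The alanine enzyme AARS (chromosome 16, 70251983 to 70289707) showed the largest rise in WT cells of the BAZ1B experiment. It stood at 7702, 7907 and 7361 normalized counts in the 3 WT libraries at D0 and at 15034, 15402 and 16713 at D6. Every D6 library lay above every D0 library, by 1.04 ± 0.088 (SE) on the log2 scale (adjusted p = 2.67e-07). WARS (chromosome 14, 100333790 to 100376805), the tryptophan enzyme and also a known interferon-response gene, stood at 5355, 5723 and 5413 at D0 and at 10822, 11259 and 10714 at D6. The groups did not overlap, with a log2 fold change of 0.99 ± 0.086 (adjusted p = 3.26e-07). CARS, for cysteine, and EPRS, the fused enzyme of the complex, both rose by 0.71, and GARS and MARS rose by 0.64 and 0.54. At the other end, RARS (log2 fold change -0.34 ± 0.048, adjusted p = 3.65e-05) and SARS (-0.19 ± 0.036, adjusted p = 0.000411), for arginine and serine, were the cytoplasmic genes that fell. QARS (0.059 ± 0.042), DARS (0.028 ± 0.051) and FARSA (0.0056 ± 0.037) were not called, and the smallest called rise was that of NARS (0.086 ± 0.032).

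TARS2, the mitochondrial threonine enzyme (chromosome 1, 150487414 to 150507602), had the largest rise of its class. It stood at 1276, 1297 and 1287 normalized counts in WT at D0 and at 2240, 2283 and 2204 at D6. The 3 libraries of each day lay close together and the days did not overlap (log2 fold change 0.80 ± 0.070, adjusted p = 3.6e-07), and WARS2 (0.42), AARS2 (0.39) and RARS2 (0.17) were among the others called higher. PARS2, which charges mitochondrial proline (chromosome 1, 54756898 to 54764523), stood at 467, 460 and 470 at D0 and at 280, 250 and 271 at D6. IARS2, for isoleucine (chromosome 1, 220094132 to 220148041), stood at 6176, 5974 and 6161 at D0 and at 4265, 4394 and 3894 at D6. YARS2, for tyrosine (chromosome 12, 32727490 to 32755897), stood at 1552, 1572 and 1573 at D0 and at 1080, 1083 and 1060 at D6. All 3 were lower in every D6 library, with log2 fold changes of -0.80 ± 0.12, -0.54 ± 0.062 and -0.54 ± 0.050 (adjusted p = 3.91e-05, 4.77e-06 and 5.77e-07). MARS2 (-0.54), NARS2 (-0.35), CARS2 (-0.35) and LARS2 (-0.23) also fell, and HARS2, SARS2, FARS2, VARS2 and EARS2 were not called.

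**Figure D2:**
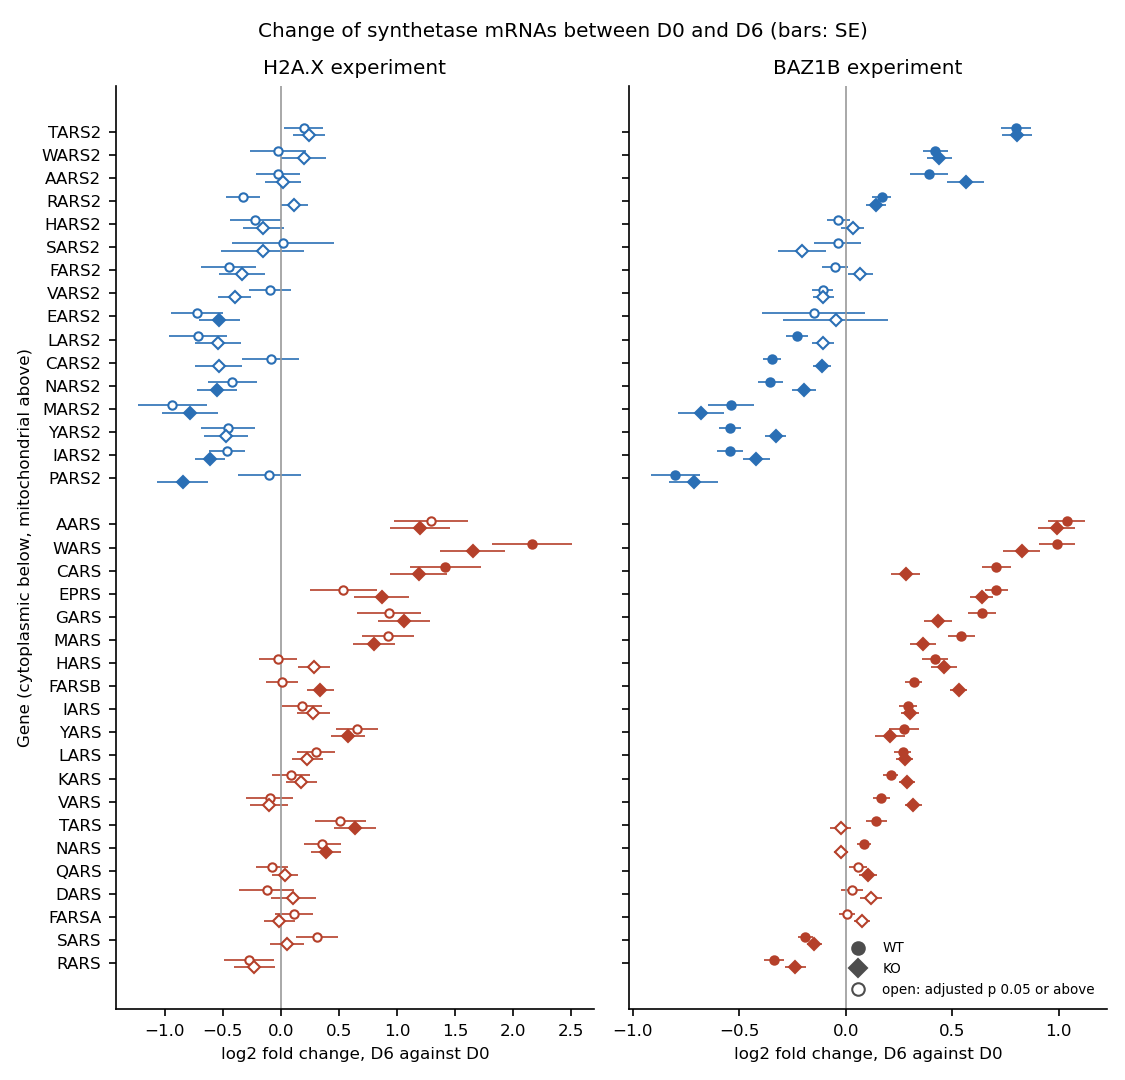
Log2 fold change of 36 of the 37 synthetases between D0 and D6, with its SE, in WT (circles) and KO (diamonds) of the H2A.X experiment (left) and the BAZ1B experiment (right). Filled symbols passed an adjusted p below 0.05, and AARS, WARS, CARS, GARS and MARS lie to the right of 0 in all 4 genotypes while PARS2, IARS2, YARS2 and MARS2 lie to the left.

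In BAZ1B KO cells, 14 cytoplasmic genes were called higher and 2 lower and 5 mitochondrial genes were called higher and 6 lower between D0 and D6, against 67.7% of all genes tested (33.2% higher and 34.5% lower). The class medians were 0.29 and -0.11. Of the 20 genes called higher in WT 18 were also called higher in KO, and of the 9 called lower 8, and this overlap was not counted over all genes. TARS2 rose by 0.80 and AARS and WARS by 0.99 and 0.83, whereas CARS rose by 0.28 and GARS by 0.43. TARS and NARS, called higher in WT, had log2 fold changes of -0.023 and -0.023 in KO and were not called, and QARS was called higher (0.10 ± 0.043, adjusted p = 0.0432). Of the genes named here, only CARS was called when the change between days was tested for a difference between the genotypes. The comparisons in KO and WT share no library, but both come from 1 fit with a common estimate of spread.

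For 14 amino acids the tables hold 1 cytoplasmic and 1 mitochondrial gene of the same name, which allows the partners to be read side by side. In WT cells of the BAZ1B experiment the cytoplasmic partner had the larger log2 fold change in 10 of 14 pairs, with a median difference of 0.48. The difference was largest for methionine (MARS 0.54, MARS2 -0.54) and cysteine (CARS 0.71, CARS2 -0.35). Among the 4 pairs in which it was reversed were threonine (TARS 0.14, TARS2 0.80) and arginine (RARS -0.34, RARS2 0.17). In WT cells of the H2A.X experiment the cytoplasmic partner had the higher log2 fold change, counted with its sign, in 13 of 14 pairs, with a median difference of 0.71. No test was run on these differences, and genes of one library are not replicates.

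HARS and HARS2, read from the shared stretch printed above, are given side by side, and the difference between their changes was not tested. HARS rose in WT of the BAZ1B experiment from 3394, 3357 and 3276 normalized counts to 4563, 4389 and 4466 (log2 fold change 0.42 ± 0.060, adjusted p = 3.92e-05), and HARS2 stood at 815, 807 and 832 at D0 and at 804, 783 and 809 at D6 (-0.035 ± 0.054, adjusted p = 0.578). The ratio of their RPKM was 4.99 to 5.27 in the 3 WT libraries at D0 and 6.99 to 7.195 at D6, and in BAZ1B KO it was 4.74 to 5.74 and 6.67 to 7.37. In neither genotype did the ratios of the days overlap. In the H2A.X experiment the ratio was 5.28 and 5.59 in WT at D0 and 5.90 and 6.62 at D6, and 3.76 to 4.82 and 5.55 to 6.27 in KO. There HARS had log2 fold changes between days of -0.022 in WT and 0.28 in KO and was not called in either. The dual-location genes moved as most cytoplasmic genes did in the BAZ1B WT comparison, GARS by 0.64 ± 0.066 and KARS by 0.21 ± 0.037 (adjusted p = 1.7e-06 and 0.000221).

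**Figure D3:**
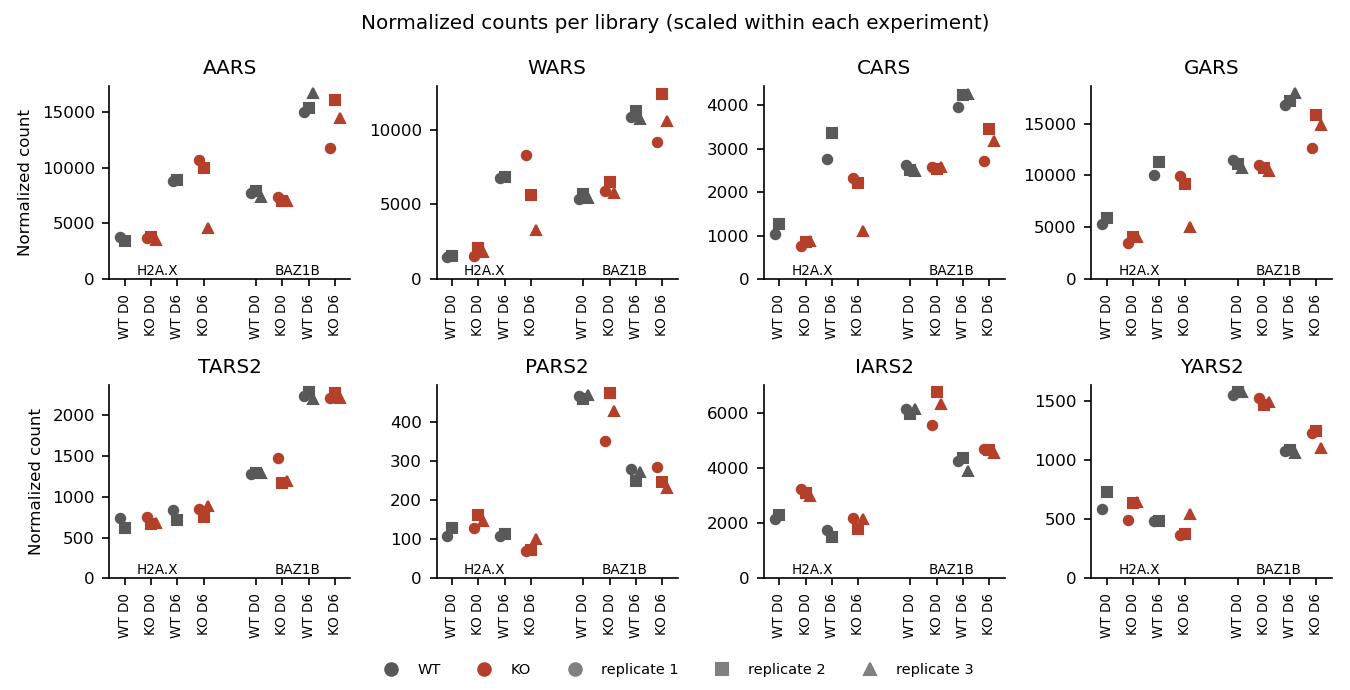
Normalized counts in every library, by genotype and day, for 4 cytoplasmic (top) and 4 mitochondrial (bottom) synthetases, with WT in grey and KO in red and a linear axis from 0. Counts were scaled within each experiment, so heights are not compared between experiments. H2A.X KO D6 replicate 3 (red triangle) is the D6 library closest to the D0 libraries for AARS, WARS, CARS and GARS.

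The second question was what loss of BAZ1B changed. At D0, no synthetase was called between BAZ1B KO and WT (3.88% of all genes tested were, 1.25% higher and 2.64% lower), 1 had an unadjusted p below 0.05, and DESeq2 also called none. The smallest p-values were those of FARSB and SARS2. FARSB stood at 5170, 5151 and 5080 normalized counts in WT and at 4797, 4759 and 4540 in KO, groups that did not overlap, with a log2 fold change of -0.13 ± 0.039 (edgeR, adjusted p = 0.103). SARS2 stood at 280, 265 and 234 in WT and at 336, 283 and 292 in KO, with the KO libraries higher throughout (0.23 ± 0.11, edgeR, adjusted p = 0.358). The class medians at D0 were -0.033 for the cytoplasmic and -0.037 for the mitochondrial genes, beside 0.0026 over all genes tested. EARS2, singled out here after its values were seen, differed between KO subclones, at 1087, 2464 and 1713 in replicates 1, 2 and 3 at D0 and at 1217, 2313 and 1583 at D6, while WT libraries lay between 2068 and 2475. The KO difference was not called on either day (-0.44 ± 0.24 and -0.33 ± 0.25).

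At D6, 4 synthetases were called, 2 cytoplasmic genes lower and 2 mitochondrial genes higher, against 12.8% of all genes tested (6.87% higher and 5.97% lower). With upper-quartile normalization 2 were called higher and 4 lower. CARS (chromosome 11, 3000922 to 3057613) stood at 3966, 4231 and 4270 normalized counts in WT and at 2714, 3452 and 3173 in KO. GARS (chromosome 7, 30580533 to 30634033) stood at 16823, 17174 and 17902 in WT and at 12685, 15836 and 14856 in KO. Every KO library lay below every WT library for both genes (log2 fold changes -0.42 ± 0.068 and -0.26 ± 0.066, adjusted p = 0.00149 and 0.0205). CARS2, the mitochondrial cysteine enzyme (chromosome 13, 110641412 to 110713603), stood at 1700, 1747 and 1798 in WT and at 2072, 2101 and 1980 in KO. NARS2, for mitochondrial asparagine (chromosome 11, 78435620 to 78575194), stood at 1004, 1007 and 936 in WT and at 1208, 1152 and 1058 in KO. KO libraries were higher throughout, with log2 fold changes of 0.23 ± 0.042 and 0.21 ± 0.058 (adjusted p = 0.0034 and 0.0288). KO replicate 1 had the lowest value of both CARS and GARS. Without that library the log2 fold change was -0.33 for CARS and -0.17 for GARS, both still called (adjusted p = 0.00101 and 0.0329), and NARS2 was no longer called (0.17, adjusted p = 0.0995). The NARS2 call was also lost without KO D6 replicate 2 and without any one of the 3 WT D6 libraries (adjusted p = 0.0524 to 0.124), and held only without KO D6 replicate 3. Without WT D6 replicate 2 or 3, 2 synthetases were called and GARS was not (adjusted p = 0.0573 and 0.0868). HARS (0.024), KARS (0.014) and QARS (0.0033) were not called.

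CARS was the 1 synthetase of 37 called for a change between days that differed between the genotypes of the BAZ1B experiment, a number near the background. Its D6 against D0 change was lower in KO than in WT by a log2 difference of -0.42 ± 0.097 (adjusted p = 0.0385), against 2.47% of all genes called in this test (1.58% higher and 0.893% lower), and with D0 values of 2633, 2513 and 2491 in WT and 2574, 2527 and 2573 in KO the genotypes overlapped before maturation. The call was lost in 9 of the 12 fits that each left out 1 library, with differences between -0.51 and -0.34.

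Cytoplasmic genes with and without the CARE letters are set side by side as a description, since the motif was taken up with the fold changes known. In WT of the BAZ1B experiment all 7 genes with the letters were called higher at D6 (median log2 fold change 0.54, range 0.086 to 1.04). Of the 9 with a start site and no match, 5 were called higher and 2 lower (median 0.21, range -0.34 to 0.99). Over all genes tested in this comparison, 33.5% were called higher and 35.4% lower. For BAZ1B KO against WT at D6, the 7 genes with the letters had fold changes from -0.42 to -0.042 (median -0.15), 2 of them called lower. The 9 others lay between -0.071 and 0.084 (median 0.014), none called, beside 5.97% of all genes called lower and 6.87% higher. WT and KO libraries overlapped for AARS (15034 to 16713 and 11777 to 16145 normalized counts), IARS and MARS, and not for CARS, GARS, NARS and TARS. The sets were not compared without KO replicate 1, which had the lowest value of CARS and GARS. WARS and EPRS, 2 of the cytoplasmic genes with the largest rises, held no match in these windows, which says nothing of sites elsewhere. In BAZ1B KO between days the sets did not separate in this way, with 5 of the 7 called higher (median 0.30) and 6 of the 9 (median 0.29, with 2 called lower). Among all genes, 33.2% were called higher and 34.5% lower there. In the H2A.X experiment the medians between days were 0.92 with the letters and 0.090 without in WT, and 0.80 and 0.18 in KO. Between H2A.X KO and WT the order was the other way, with medians of -0.21 with the letters and -0.31 without at D0, and -0.13 and -0.27 at D6.

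**Figure D4:**
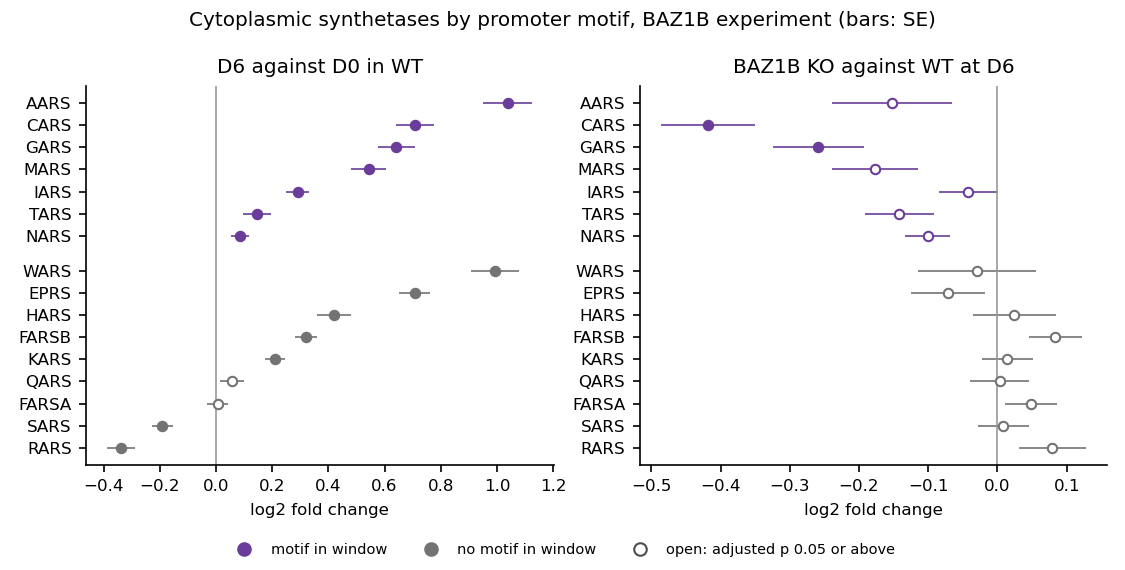
Log2 fold change with its SE of the 16 cytoplasmic synthetases with a RefSeq start site, between D6 and D0 in WT (left) and between BAZ1B KO and WT at D6 (right), with the 7 genes that hold the CARE letters in purple and the 9 others in grey. All 7 purple points lie right of 0 on the left and left of 0 on the right, where the WT and KO libraries of AARS, IARS and MARS overlapped.

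Other ATF4 targets were read from a list of 26 genes that includes ATF4 itself, with genes of amino acid synthesis, transport and stress response and no synthetase. Of 24 tested in WT of the BAZ1B experiment, 18 were called higher at D6 and 3 lower (median log2 fold change 0.76), beside 33.5% and 35.4% of all genes tested, and ATF4 itself rose by 0.78. ATF3, a stress-induced transcription factor, CHAC1, which degrades glutathione, and SESN2, an inhibitor of mTORC1 under amino acid shortage, rose most (3.26, 2.15 and 1.68), and PSPH, EIF4EBP1 and SHMT2 fell (-0.68, -0.37 and -0.12). Between BAZ1B KO and WT at D6, 13 of 24 were called lower and none higher (median -0.33), beside 5.97% and 6.87% of all genes. CHAC1 stood at 1465, 1576 and 1768 normalized counts in WT and at 579, 1028 and 828 in KO at D6 (log2 fold change -0.99, adjusted p = 0.00207), and SLC7A11, the cystine transporter, at 1138, 1246 and 1315 in WT and at 489, 767 and 641 in KO (-0.97, adjusted p = 0.000342). KO replicate 1 had the lowest value of each. DDIT3, whose exons overlap MARS by 60 bases on the opposite strand, rose by 0.65 in WT and was lower in KO at D6 (-0.50). The genotype by day test called SESN2, SLC1A5 and TRIB3 lower, beside 0.893% of all genes. At D0, TRIB3 was called higher (0.91) and none lower, beside 1.25% and 2.64% of all genes. For the H2A.X experiment, 20 of 25 genes of the list were called higher and 1 lower between days in KO (median 1.37), beside 14.8% and 16.1% of all genes, and none in WT (median 0.84), beside 2%. Between H2A.X KO and WT, 6 of 25 were called lower at D0, with ATF4 at -1.25, and none higher, beside 16.7% and 18.4% of all genes. At D6 4 were called lower and 2 higher, a smaller share than the 43.1% of all genes.

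In WT cells of the H2A.X experiment, 2 synthetases were called between D6 and D0, both higher and cytoplasmic, against 2% of all genes tested (0.839% higher and 1.16% lower). WARS stood at 1496 and 1540 normalized counts at D0 and at 6744 and 6845 at D6, and CARS at 1035 and 1262 and at 2770 and 3361. The days did not overlap for either gene (log2 fold changes 2.16 ± 0.35 and 1.42 ± 0.31, adjusted p = 0.0263 and 0.0463). The class medians were 0.31 and -0.32, 15 of 20 cytoplasmic genes were positive and 15 of 17 mitochondrial genes negative. Libraries of the same genotype and number deviated together across days, and with the number taken as the subclone and used as a block 7 synthetases were called, 4 higher and 3 lower. When the WT D6 replicate 1 was left out 1 was called, and none when any other WT library was left out.

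In H2A.X KO cells, 15 synthetases were called between D6 and D0, 10 cytoplasmic genes higher and 5 mitochondrial genes lower, against 30.9% of all genes (14.8% higher and 16.1% lower). WARS (1.65), AARS (1.20), CARS (1.19), GARS (1.06) and EPRS (0.87) rose most, and PARS2 (-0.84), MARS2 (-0.78), IARS2 (-0.61), NARS2 (-0.55) and EARS2 (-0.53) fell. AARS stood at 10730, 9991 and 4624 in KO D6 replicates 1, 2 and 3 and at 3544 to 3788 in the KO D0 libraries, and EPRS at 15603, 13971 and 7356 against 6621 to 6911. Replicate 3 thus lay above the D0 libraries of both genes and below the other D6 libraries. Its ratio of cytoplasmic to mitochondrial synthetase reads was 7.24, beside 10.4 to 11.7 in the other D6 libraries and 5.45 to 6.55 at D0, whereas its globin reads (3.09% of the library) lay between those of KO D6 replicates 1 and 2 (2.43% and 4.34%). The difference between the class medians was 0.709 with it and 0.996 without it, when 18 synthetases were called, 9 in each direction, and when all KO columns left carried the word Redo. The share of all genes called in that fit is not given here, and the library was singled out by its synthetase values. Leaving out any one of the other KO libraries gave 6 to 8 synthetases called. No synthetase differed by genotype in its change between days (adjusted p below 0.05 in 1.34% of all genes, 0.302% higher and 1.04% lower, unadjusted p below 0.05 in 1 synthetase, DESeq2 none).

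The last comparison was between H2A.X KO and WT. At D0, 2 mitochondrial genes were called higher, and 3 cytoplasmic and 1 mitochondrial gene lower, against 35.1% of all genes tested (18.4% higher and 16.7% lower), a smaller share than the background. With upper-quartile normalization none was called higher and 6 lower. IARS2 stood at 2166 and 2321 normalized counts in WT and at 3231, 3113 and 3005 in KO. It was higher in every KO library (0.47 ± 0.14, adjusted p = 0.0297). FARS2, the mitochondrial phenylalanine enzyme, stood at 639 and 1021 in WT and at 451, 455 and 496 in KO, HARS at 2010 and 2312 and at 1414, 1460 and 1470, and KARS at 6518 and 8323 and at 5095, 5879 and 5635. All 3 were lower in every KO library, with log2 fold changes of -0.83 ± 0.21, -0.58 ± 0.15 and -0.42 ± 0.15 (adjusted p = 0.0168, 0.017 and 0.0485), and WT replicate 2 was the higher of the WT libraries for each. QARS was also called lower (-0.36 ± 0.12, adjusted p = 0.0438), and GARS (-0.54 ± 0.25) and HARS2 (-0.27 ± 0.20) were not called. When single libraries were left out, 0 to 5 synthetases were called, with 0 without WT D0 replicate 2 or KO D0 replicate 1 and 1 without KO D0 replicate 2 or 3. Without WT D0 replicate 2 the log2 fold change was -0.45 for FARS2 and -0.24 for KARS (adjusted p = 0.226 and 0.344).

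At D6, 7 were called, 2 higher, DARS among them, and CARS2, FARS2, MARS, SARS and FARSA lower, against 43.1% of all genes tested (22.2% higher and 20.9% lower), and with upper-quartile normalization 1 was called higher and 8 lower. DARS, the cytoplasmic enzyme for aspartate (chromosome 2, 135905881 to 135986100), stood at 2752 and 2287 in WT and at 2997, 5034 and 3496 in KO. KO libraries were higher throughout (0.61 ± 0.22, adjusted p = 0.0455). CARS2 stood at 1223 and 1351 in WT and at 608, 476 and 854 in KO, FARS2 at 650 and 564 and at 333, 330 and 448, and MARS at 6550 and 6873 and at 5634, 4825 and 3275. All KO libraries were lower (-0.99 ± 0.22, -0.71 ± 0.22 and -0.55 ± 0.20, adjusted p = 0.00687, 0.024 and 0.0476). Without KO D6 replicate 3, 11 synthetases were called, 5 higher and 6 lower, and MARS was not (-0.33, adjusted p = 0.0793). The share of all genes called in that fit is not given here, so these 11 have no background beside them. Without KO D6 replicate 2 DARS was not called (0.36, adjusted p = 0.123). Without WT D6 replicate 2 none was called, and without WT D6 replicate 1 or KO D6 replicate 2, 4 were.

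The H2A.X KO differences went with transcript length. Over the 37 genes, Spearman's rho between log2 fold change and the length of the canonical transcript was 0.64 at D0 and 0.75 at D6, and over the 12018 genes with a length it was 0.55 and 0.60. Genes share their libraries, so these values are descriptions. For BAZ1B KO against WT the values over the synthetases were -0.19 and -0.18. Of the synthetases called lower, FARS2 at D0 (-0.83) and CARS2 at D6 (-0.99) had the most negative values, and their transcripts measured 1679 and 1838 bases, while IARS2, called higher at D0, measured 3530 bases. With a correction for length and GC content, 1 synthetase was called lower at D0 and at D6 1 was called higher and 1 lower. CARS2 then had a log2 fold change of -0.53 (adjusted p = 0.0557) and FARS2 -0.25 (adjusted p = 0.297) at D6. The genotypes also differ in the Redo mark of their columns, and what length, that mark and genotype each contribute cannot be told apart.

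**Figure D5:**
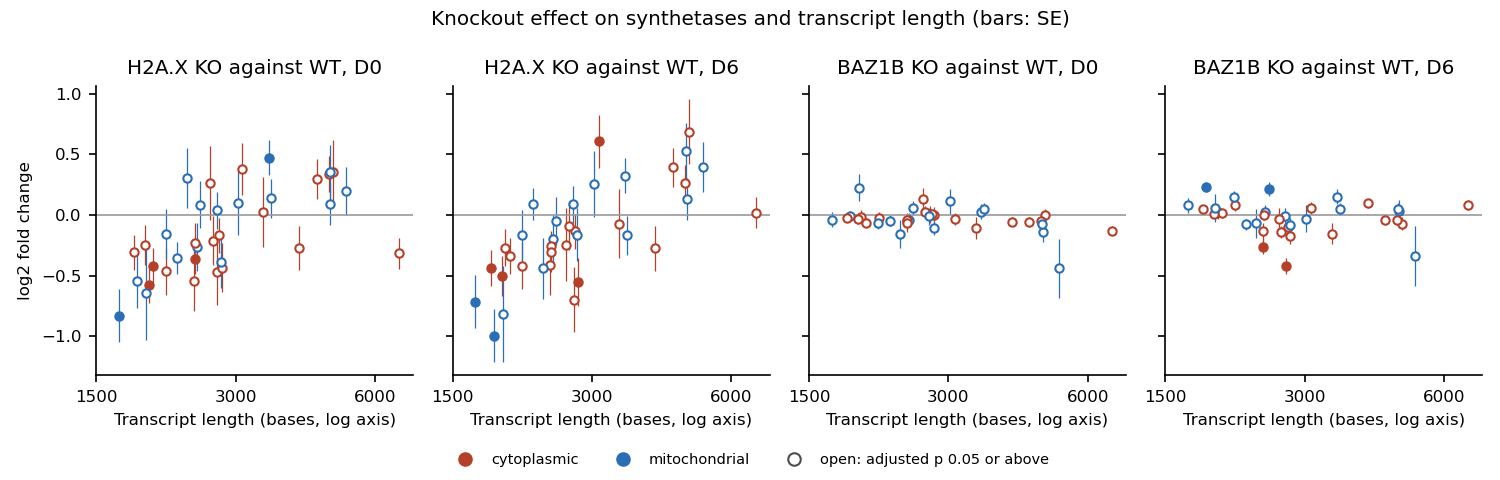
Log2 fold change of 36 of the 37 synthetases between KO and WT, with its SE, against the length of the canonical transcript in bases on a log axis, for H2A.X and BAZ1B KO at D0 and D6. Filled symbols passed an adjusted p below 0.05. The H2A.X points rise from the shortest to the longer transcripts (rho over all 37 genes 0.64 and 0.75), and the BAZ1B points lie near 0 (rho -0.19 and -0.18).

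Genes that work beside the synthetases were counted from lists of the same pathway. The share of all genes called higher and lower was 33.5% and 35.4% between days in WT of the BAZ1B experiment, 33.2% and 34.5% in KO, and 18.4% and 16.7% in H2A.X KO at D0. Of the 3 scaffolds of the multisynthetase complex, AIMP1 was called higher at D6 in WT of the BAZ1B experiment (0.49), and all 3, AIMP1 (-0.72), AIMP2 (-0.92) and EEF1E1 (-1.23), were lower in H2A.X KO at D0. All 4 tested subunits of elongation factor 1, which carries charged tRNA to the ribosome, rose at D6 in both genotypes of the BAZ1B experiment, in WT by 0.48 for EEF1A1, 0.39 for EEF1B2, 0.31 for EEF1D and 1.84 for EEF1A2. Of 10 mitochondrial partners, 6 were called lower and 1 higher in that comparison. TRNT1, which adds the CCA end of tRNAs, GFM1, a mitochondrial elongation factor, and QRSL1, a subunit of the amidotransferase that makes mitochondrial glutaminyl-tRNA, fell most (-0.64, -0.61 and -0.56), and GATC, another subunit of that amidotransferase, rose (0.14). Of 9 factors that resemble synthetases, edit their products or make selenocysteine, 4 rose and 2 fell, with SEPSECS, the last enzyme of selenocysteinyl-tRNA synthesis, at 1.22 and DTD1, a deacylase that removes D-amino acids, at -0.76. Of 20 genes of tRNA maturation and export, 4 were called higher and 10 lower between days in WT of the BAZ1B experiment (median -0.12), in all near the 68.9% of all genes called, and 1 higher and 12 lower in H2A.X KO at D0 (median -0.55). Between BAZ1B KO and WT at D6 SECISBP2 (-0.27) and EEF1A2 (-1.56) were called lower and RPP25 (0.32) higher from these 5 lists, beside 12.8% of all genes called. In H2A.X KO at D6, 9 of the 20 genes of tRNA maturation and export were called lower and none higher (median -0.47), beside 20.9% and 22.2% of all genes. The H2A.X KO against WT values of these lists and of the ATF4 list were not corrected for transcript length. Over all genes with a length, these differences went with it (Spearman's rho 0.55 at D0 and 0.60 at D6).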

How the data were processed

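RNA-Seq was performed on HUDEP-2 cells with the H2A.X or BAZ1B gene deleted and on WT cells. The methods state that the authors filtered reads for quality and adaptors and mapped them to hg38 with STAR. The submitters' processing notes name STAR 2.7.0f, Subread 1.6.4, featureCounts and DESeq2 1.22.1. The deposited values are raw counts per gene name, 1 table for each experiment. The sources differ on library kit, strand and read length, and no base-level check was made here.

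Counts were tested in each experiment separately with edgeR 4.0.16 (R 4.3.3) by quasi-likelihood with TMM normalization, 1 coefficient for each genotype and day, on genes kept by filterByExpr (min.count 10, min.total.count 15). P-values were adjusted over all genes tested by Benjamini-Hochberg, and a gene with an adjusted p below 0.05 is said to be called. Normalized counts are counts scaled by TMM library size. Total counts limit precision, and errors are standard errors. RPKM used canonical transcripts of GENCODE on GRCh38. Length and GC content were available for 90.8% and 89.41% of the genes tested, and their correction used mgcv 1.9.3. DESeq2 1.42.0, upper-quartile scaling, other filters, blocks and left-out libraries were alternatives. The procedure was tested on simulated data.

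Libraries of the same genotype and number at D0 and D6 deviated together in the H2A.X experiment (r from 0.299 to 0.599) and in BAZ1B KO (0.167 to 0.654), and in BAZ1B WT r was 0.0243 to 0.181. With 2 WT libraries per day in the H2A.X experiment, both pairs give the same r (0.483) by construction. The number was taken as the subclone in the block fits, which for WT is an assumption that the labels do not state. Named genes were, in each comparison, up to 3 called synthetases in each direction with the largest change, or the 2 with the smallest p where none was called, with HARS, HARS2, GARS, KARS and QARS in any case, and up to 3 called genes of other lists. The values of 1 mitochondrial synthetase, counted in its class, are not reported here. The members and lists were chosen with earlier results of these data known.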

Additional observations from a re-analysis of the deposited data

Results flagged for a closer look

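The change of CARS between days differed between BAZ1B KO and WT by -0.42 ± 0.097 on the log2 scale (edgeR quasi-likelihood test of the difference, adjusted p = 0.0385), and the call was lost in 9 of the 12 fits that each left out 1 library. It was the 1 call among 37 synthetases, near the 2.47% of all genes called in this test.

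For RARS2 and SARS every WT library at D6 lay on one side of the D0 libraries in the H2A.X experiment and on the other side in the BAZ1B experiment, and the difference between experiments was not tested, since the tables are separate. The log2 fold changes in WT were -0.32 and 0.17 for RARS2 and 0.31 and -0.19 for SARS, with the H2A.X experiment first. In the H2A.X experiment neither was called (adjusted p = 0.232 and 0.363).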

How the results depend on the processing

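The numbers of synthetases called depended on threshold and library. Differences between class medians use no threshold and are not set against these numbers. With stricter cutoffs (adjusted p below 0.001 and absolute log2 fold change above 1.5) the number called was 0 in every comparison. Without the low-count filter it was 1 for BAZ1B KO at D0 (0 in the report), 7 for BAZ1B KO at D6 (4), 3 for H2A.X KO at D0 (6) and 7 for H2A.X WT between days (2). With libraries of the compared day alone it was 2 for BAZ1B KO at D6, 10 for H2A.X KO at D0 and 2 for H2A.X KO at D6 (7), and with the compared genotype alone 4 for H2A.X WT between days. DESeq2 called 9 there and 3 for BAZ1B genotype by day (1). The length and GC correction gave 1 and 2 for H2A.X KO at D0 and D6 and 3 for BAZ1B genotype by day. The cause of these differences was not tested. Upper-quartile normalization moved the median of all genes in H2A.X KO at D6 by -0.11.

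Leaving out 1 library at a time gave 0 to 1 (BAZ1B KO at D0), 2 to 6 (BAZ1B KO at D6), 0 to 3 (BAZ1B genotype by day), 23 to 28 and 27 to 29 (BAZ1B KO and WT between days), 0 to 5 and 0 to 11 (H2A.X KO at D0 and D6), 6 to 18 and 0 to 1 (H2A.X KO and WT between days). Shares of all genes called are not given for these fits. The difference between classes in H2A.X KO between days was 0.658 to 0.996 (0.709). In H2A.X KO against WT at D6 it lay between -0.33 and 0.044, so its sign was not stable. GARS in BAZ1B KO at D6 was lost without WT D6 replicate 2 or 3, and NARS2 without any WT D6 library or KO D6 replicate 1 or 2.

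WT and KO libraries of the same number share only a number (r from 0.0646 to 0.210 in the H2A.X and from -0.0482 to 0.177 in the BAZ1B experiment). With the replicate block 7 and 9 were called for H2A.X KO at D0 and D6 and 0 and 4 for BAZ1B KO, and with length and GC correction added 2 and 3 for H2A.X KO. With the number taken as the subclone and used as the block, H2A.X WT between days had 7, and 5 with length and GC correction, H2A.X KO between days had 18, and the other counts between days were 29, 27, 1 and 0. No named synthetase changed direction in any alternative. Outside the left-out libraries, single named synthetases, called or not, stayed on the same side of the threshold in 166 checks and lost a call in 33. When single libraries were left out, they stayed on the same side in 86 checks and lost a call in 56. Some of those fits left 1 WT library in a group.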
